A study of Homo sapiens with 6 samples.

Results

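The genes of G1 phase control were followed in small cell lung cancer (SCLC) cells that had become resistant to onvansertib. They were 10 genes chosen by name: the D cyclins CCND1, CCND2 and CCND3, the E cyclins CCNE1 and CCNE2, the kinases CDK4 and CDK6, and the CDK inhibitors CDKN1A, CDKN1B and CDKN2A. All 10 had a row among the 62710 genes analysed, and 9 reached the minimum mean of 10 needed for testing, as did 16347 genes in all. CCND2 did not.

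H526 is an established human SCLC line, and onvansertib is an inhibitor of the mitotic kinase PLK1. The parental group was 3 RNA-seq libraries of untreated H526. The resistant group was 3 libraries of H526 cells exposed for more than a year to onvansertib raised from 10 to 75 nM. Both groups came from the same line and medium, and RNA was taken from each at 3 separate times. The resistant cells were a single population selected in the dish, whether it was clonal is not given in the sources used here, and lasting change cannot be told apart from a response to drug still present at harvest. The p-values therefore measure the spread between extractions of 1 parental and 1 resistant culture.

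D cyclins bind CDK4 and CDK6, and the paired enzyme begins the phosphorylation of the retinoblastoma protein RB that holds E2F transcription factors in check. Released E2F raises the E cyclins, which activate CDK2 and carry cells into S phase. The p16INK4a product of CDKN2A binds CDK4 and CDK6 directly, while the p21 and p27 proteins of CDKN1A and CDKN1B bind cyclin-CDK complexes more broadly. Loss of RB is common in SCLC and is usually accompanied by abundant p16INK4a.

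Depth, estimated from the step between low normalized values, was 25730768 to 28509660 reads in the parental and 22368400 to 23269824 in the resistant libraries. By the same estimate, 3 reads, taken as the limit of detection, corresponded to a value of 2.67 to 3.22. This limit covers counting error only. Values are DESeq2-normalized read counts per gene, and a fold change is the difference in log2(value + 1), resistant minus parental. A gene was called where its adjusted p from limma across all genes was under 0.05. The line was checked by its defining marker: POU2F3, which defines tuft-like SCLC, was at 25809 ± 1178 and 27273 ± 535 (SD, n = 3) in parental and resistant cells. The summed proliferation markers ranged from 48229 to 57122 in parental and from 54563 to 60743 in resistant libraries. The summed fibroblast and blood markers were at 153 to 200 and at 392 to 631, carried mainly by COL1A1 and COL1A2, with CD3E and HBB of the 11 listed at 0 throughout.

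Of the 9 members tested, 3 were called, and all of them were lower in resistant cells: CDK4, CDK6 and CDKN2A. CDK4 and CDK6 stood at 54.6% and 51.2% of their parental means, and CDKN2A at 78.6%. Over all genes tested, 37.7% were called, 19.8% lower and 17.8% higher, so a share of 33.3% among the members was near the background. The groups did not overlap for 4 members, the 3 named and CDKN1B, against 49.9% of all genes tested. The median log2 fold change was -0.14 over the 9 members and -0.00 over all genes tested. The plot of values by library shows the 9 tested members.

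**Figure D1:**
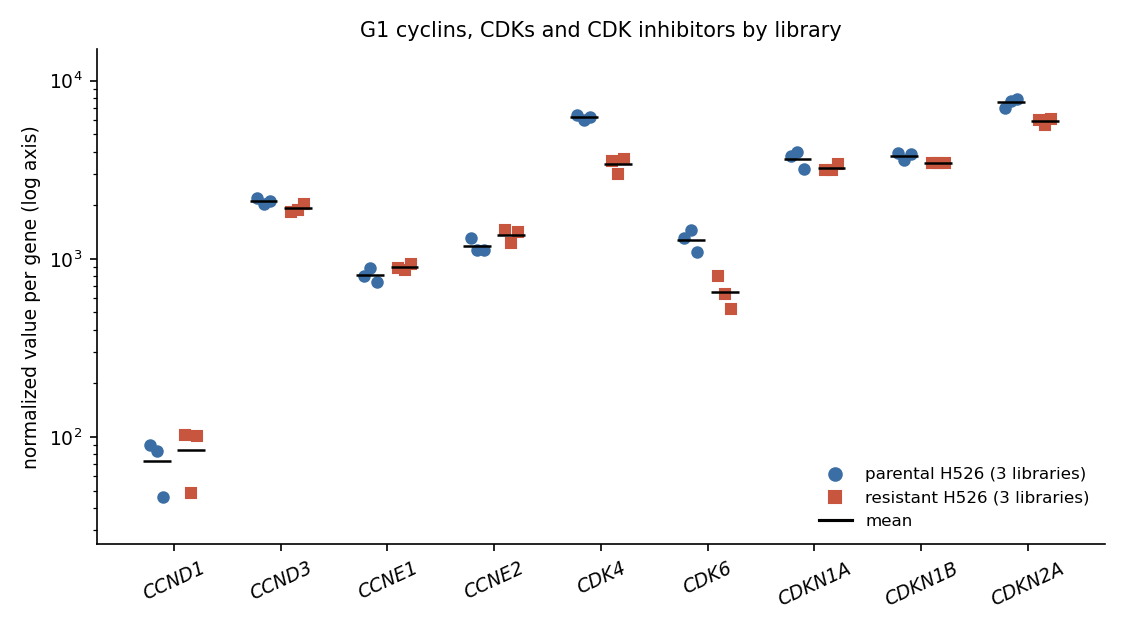
Normalized value per gene (log axis) of the 9 tested members in each of 3 parental (blue circles) and 3 resistant (red squares) libraries, with black bars at the group means. CDK4 lies at 6008 to 6403 in parental and 2980 to 3653 in resistant libraries, and CDK6 and CDKN2A also separate without overlap, as CDKN1B does over a narrow gap.

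CDK4 and CDK6 are the catalytic partners of the D cyclins. CDK4 (ENSG00000135446, GRCh38 chr12:57747727-57756013, minus strand) measured 6403, 6008 and 6255 in parental libraries 1, 2 and 3 and 3553, 2980 and 3653 in resistant libraries 7, 8 and 9. Every resistant library lay well below the lowest parental one. The mean was 6222 ± 199 in parental and 3395 ± 363 in resistant cells, a log2 fold change of -0.88 (SE 0.08, 95% interval -1.06 to -0.70, adjusted p = 2.9e-05, limma). The exact two-sided permutation test gave p = 0.10, the smallest value that 3 against 3 libraries allow.

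CDK6 (ENSG00000105810, chr7:92604921-92836573, minus strand) is the paralog of CDK4 and binds the same cyclins. It measured 1301, 1442 and 1085 in parental and 801, 635 and 521 in resistant libraries. The groups were apart, although each spread over a wider relative range than CDK4 did. The mean of 1276 ± 180 in parental cells compared with 652 ± 141 in resistant cells, a log2 fold change of -0.98 (SE 0.15, 95% interval -1.32 to -0.63, adjusted p = 0.0008, limma; exact permutation p = 0.10).

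A difference between the kinases in the size of their change was not detected. The log2 ratio of CDK6 to CDK4 within a library averaged -2.29 ± 0.23 in parental and -2.39 ± 0.36 in resistant cells (exact two-sided permutation p = 0.70), and the change of this ratio ran from -0.22 to 0.11 when each library was left out. Per kb of transcript, CDK4 made up 96.3% to 97.8% of the summed value of both kinases in every library. This share depends on the transcript lengths used, 1865 bases for CDK4 and 11663 for CDK6. Which transcripts were in use was not measured. That sum was 3446 ± 99.8 per kb in parental and 1877 ± 195 per kb in resistant cells, 54.5% of the parental level (exact permutation p = 0.10).

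RefSeq promoter sequence (GRCh38.p14) is shown for both kinases, because they had the largest differences among the members. The stretches lie upstream of the RefSeq starts and outside annotated exons, and run 5′ to 3′ on the minus strand, from chr12:57752448-57752560 for CDK4 and chr7:92836574-92836693 for CDK6. Capitals mark CACGTG, the E-box letters recognised by MYC family factors.
CDK4: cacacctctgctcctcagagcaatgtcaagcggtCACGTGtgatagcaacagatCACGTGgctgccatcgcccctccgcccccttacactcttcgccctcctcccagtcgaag
CDK6: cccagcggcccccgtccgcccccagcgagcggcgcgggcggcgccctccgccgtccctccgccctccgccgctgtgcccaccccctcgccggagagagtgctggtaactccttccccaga
The full CDK4 window, from 250 bases before to 50 after the start, held CACGTG 3 times, with first bases at -216, -196 and -101. These letters were searched for only after the CDK4 window had been read, and the match is a description of sequence. Of all 35116 windows in the table, 7.256% held the letters at all and 0.094%, or 33 windows, held them 3 or more times. The CDK6 window of the stretch shown held them 1 time, 30 bases after the start, and a further RefSeq window of CDK6 held them 0 times. MYCN, a MYC family gene, measured 37473 ± 951 in parental and 36152 ± 1042 in resistant cells (log2 fold change -0.05, adjusted p = 0.50, limma).

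Other genes beside CDK4 were lower as well. Among the 20 nearest tested genes on each side, 22 of 40 were called lower and 1 higher, and their median log2 fold change was -0.63. CDK4 itself lay below this median, and 10 of the 40 neighbours lay below CDK4. The medians of the neighbours at lower and at higher positions were -0.69 and -0.59. TSPAN31 and MARCHF9, which overlap CDK4 on the opposite strand, fell from 488 ± 30.0 to 277 ± 40.7 (log2 fold change -0.82) and from 1130 ± 92.8 to 749 ± 49.7 (log2 fold change -0.59). The strand setting of the counting is not given in the sources used here, so reads of CDK4 and of these overlapping genes may not be separable. The same limit holds for CDKN2A with CDKN2B-AS1, for CCND1 with LTO1 (417 ± 23.3 in parental and 382 ± 35.6 in resistant cells, above CCND1 itself), for CCNE2 with INTS8 (2053 ± 179 and 2017 ± 272) and for CDKN1B with GPR19. No DNA was measured here, and the cause of the lower level of the segment was not tested.

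Around CDK6 the neighbours were lower to a smaller extent. Their median log2 fold change was -0.30, with 16 of 40 called lower and 4 higher, and CDK6 was below all but 1 of them. When the shift of the 40 neighbours was subtracted in each library, a step called local centring, CDK4 kept a log2 fold change of -0.30 (adjusted p = 0.017, limma) and CDK6 kept -0.66 (adjusted p = 0.0055). After this step 5 members were called, against 30.6% of all genes tested. The p-values of this step measure the spread between libraries and leave out the spread among the neighbours.

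**Figure D2:**
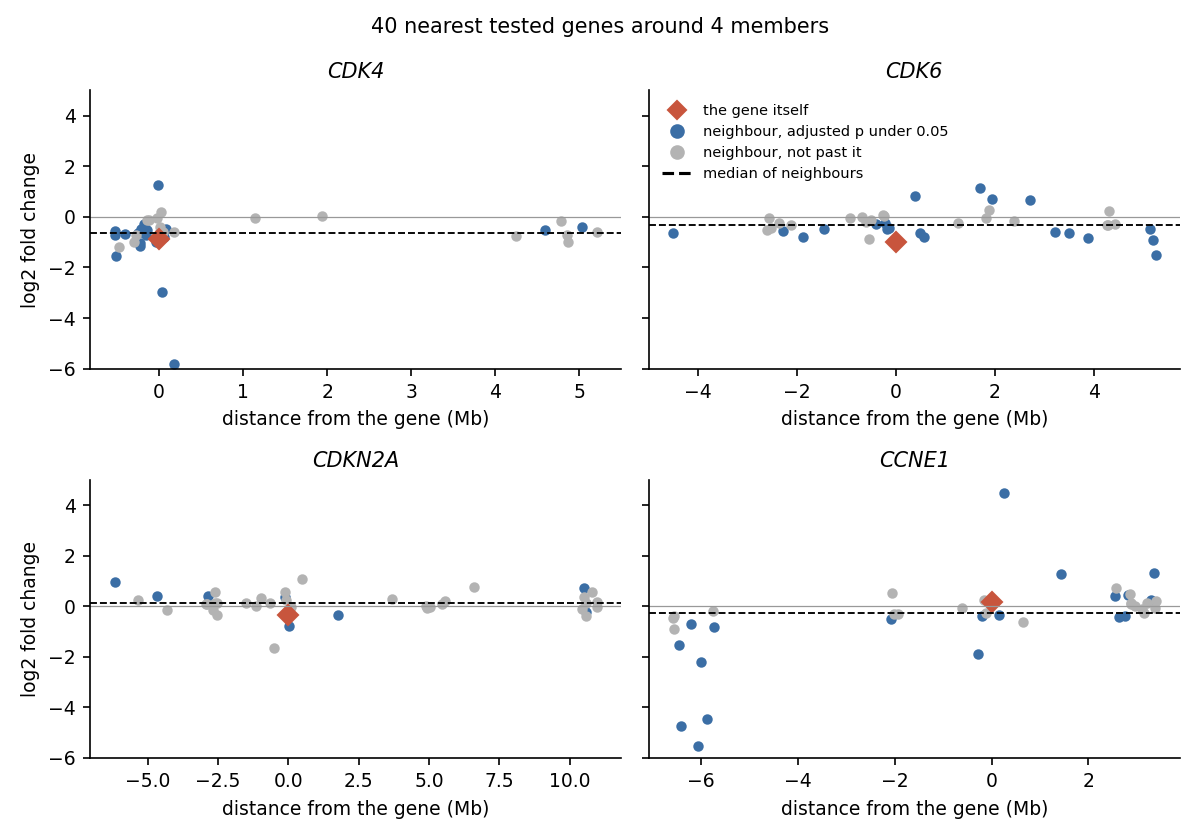
log2 fold change (vertical axis) of the 40 nearest tested genes around CDK4, CDK6, CDKN2A and CCNE1 by distance from the gene in Mb (horizontal axis), with blue points for neighbours called, grey points for the others, a red diamond for the gene itself and a dashed line at the median of the neighbours. The median lies at -0.63 around CDK4, -0.30 around CDK6, 0.12 around CDKN2A and -0.27 around CCNE1.

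Of the 3 CDK inhibitors, CDKN2A was the only one called. CDKN2A (ENSG00000147889, chr9:21967752-21995301, minus strand) encodes p16INK4a and, from another first exon and reading frame, p14ARF, a separate tumour suppressor protein. It measured 7007, 7702 and 7930 in parental and 6029, 5649 and 6120 in resistant libraries. The groups did not overlap. The mean fell from 7547 ± 481 to 5933 ± 250, a log2 fold change of -0.35 (SE 0.07, 95% interval -0.49 to -0.20, adjusted p = 0.0026, limma; exact permutation p = 0.10). The row sums the transcripts of both products, so their parts in the difference were not tested.

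The gene has separate promoters for its products, which the RefSeq stretches before each start show (GRCh38.p14, minus strand, 5′ to 3′). The first lies at chr9:21995325-21995444, before the first exon of p14ARF, and the second at chr9:21974867-21974986, before that of p16INK4a. They hold none of the letters searched and are therefore in lower case throughout.
CDKN2A, p14ARF start: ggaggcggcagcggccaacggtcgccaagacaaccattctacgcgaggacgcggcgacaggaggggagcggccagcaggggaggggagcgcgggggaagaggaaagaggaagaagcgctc
CDKN2A, p16INK4a start: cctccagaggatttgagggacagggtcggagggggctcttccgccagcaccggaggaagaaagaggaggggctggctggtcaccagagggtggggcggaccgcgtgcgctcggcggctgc

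Genes around CDKN2A did not, on balance, share its direction. The median log2 fold change of the 40 neighbours was 0.12, with 3 called lower and 5 higher, and 4 of them lay below CDKN2A. After local centring CDKN2A stood at -0.43 (adjusted p = 0.0026, limma). CDKN2B, the adjacent gene, encodes p15INK4b, another inhibitor of CDK4 and CDK6. It measured 275, 303 and 276 in parental and 179, 171 and 142 in resistant libraries, without overlap, a log2 fold change of -0.80 (SE 0.14, adjusted p = 0.0018, limma). The long noncoding CDKN2B-AS1, which overlaps both on the opposite strand, measured 116 ± 17.3 and 113 ± 14.3.

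CDKN1A (ENSG00000124762, chr6:36676460-36687337, plus strand) encodes p21, an inhibitor induced when cells halt the cycle. It measured 3759, 3951 and 3186 in parental and 3136, 3151 and 3405 in resistant libraries. The groups overlapped, because parental library 3 lay among the resistant ones. Means were 3632 ± 398 and 3231 ± 152, and the log2 fold change of -0.16 was not called (SE 0.09, 95% interval -0.35 to 0.03, adjusted p = 0.16, limma; exact permutation p = 0.20). Without parental library 3 it was -0.26 and called (adjusted p = 0.037), and without parental library 2 it was -0.10 (adjusted p = 0.41).

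CDKN1B (ENSG00000111276, chr12:12685498-12722369, plus strand) encodes p27, which the SKP2 ubiquitin ligase marks for destruction. It measured 3902, 3563 and 3882 in parental and 3430, 3450 and 3456 in resistant libraries. The resistant values were close together and all lay under the lowest parental one. The difference was small, with means of 3782 ± 190 and 3445 ± 13.9 and a log2 fold change of -0.13 (SE 0.06, 95% interval -0.27 to 0.01, adjusted p = 0.12, limma; exact permutation p = 0.10). Its neighbours had a median of 0.14 with quartiles of -0.11 and 0.47, and 9 of the 40 lay below CDKN1B. After local centring CDKN1B stood at -0.30 and was called (adjusted p = 0.0074, limma). The log2 ratio of CDKN1A to CDKN1B changed by -0.03 (exact permutation p = 0.80).

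Among the D cyclins, CCND3 carried nearly all of the measured RNA. Per kb of transcript it made up 97.4% to 99.0% of the D cyclin sum in every library. CCND3 (ENSG00000112576, chr6:41934934-42050357, minus strand) measured 2186, 2020 and 2115 in parental and 1840, 1871 and 2036 in resistant libraries. Resistant library 9 lay above parental library 2, so the groups overlapped. Means were 2107 ± 83.6 and 1916 ± 105, and the log2 fold change of -0.14 was not called (SE 0.07, 95% interval -0.30 to 0.02, adjusted p = 0.16, limma; exact permutation p = 0.20).

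CCND1 (ENSG00000110092, chr11:69641156-69654474, plus strand) was low in both groups. It measured 89.8, 83.4 and 46.0 in parental and 102.5, 48.6 and 101.6 in resistant libraries. Each group had 2 higher libraries and 1 low one, and the groups overlapped. Means of 73.1 ± 23.6 and 84.2 ± 30.9 gave a log2 fold change of 0.18 with a wide interval (SE 0.35, 95% interval -0.59 to 0.96, adjusted p = 0.72, limma; exact permutation p = 0.50). Its sign turned without parental library 3, to -0.12. The log2 ratio of CCND1 to CCND3 changed by 0.32 (exact permutation p = 0.50, and 0.02 to 0.66 when each library was left out).

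CCND2 (ENSG00000118971, chr12:4269771-4305353, plus strand) was listed at 0 in all 6 libraries. No fold was computed. An unnamed gene that overlaps it on the same strand, ENSG00000285901, was listed at 0 in parental cells and at 14.3 ± 24.7 in resistant cells. An SD that large for this mean places the whole value in a single resistant library. How the reads of this gene were divided from those of CCND2 was not tested.

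The D cyclins summed per kb were at 1057 ± 41.9 in parental and 965 ± 54.9 in resistant cells, 91.3% of the parental level (exact permutation p = 0.20). Their kinases fell further relative to CCND3 in every resistant library. The log2 ratio of CDK4 to CCND3 within a library was 1.56 ± 0.01 in parental and 0.82 ± 0.14 in resistant cells, and that of CDK6 to CCND3 was -0.73 ± 0.24 and -1.57 ± 0.38 (exact permutation p = 0.10 each, groups without overlap). The ratios to CDKN2A were also lower, by -0.53 for CDK4 and -0.63 for CDK6 (exact permutation p = 0.10 each). These 4 pairs, and that of CDK4 with CDK2, were chosen after the values were seen.

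The E cyclins had positive fold changes, but neither was called. CCNE1 (ENSG00000105173, chr19:29811991-29824312, plus strand) measured 796, 884 and 737 in parental and 892, 867 and 936 in resistant libraries. Parental library 2 lay among the resistant ones. Means were 806 ± 74.1 and 898 ± 35.2, with a log2 fold change of 0.16 (SE 0.09, 95% interval -0.05 to 0.37, adjusted p = 0.20, limma; exact permutation p = 0.20). Without parental library 3 it was 0.098 (adjusted p = 0.51). After local centring it stood at 0.41 and was called (adjusted p = 0.0093), but the neighbours on its 2 sides differed, with medians of -0.50 at lower and 0.13 at higher positions, and 8 of the 40 were zinc finger genes by symbol.

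CCNE2 (ENSG00000175305, chr8:94879770-94896678, minus strand) measured 1306, 1114 and 1120 in parental and 1447, 1229 and 1421 in resistant libraries. The groups overlapped through parental library 1, which lay above resistant library 8. Means were 1180 ± 109 and 1366 ± 119, with a log2 fold change of 0.21 (SE 0.10, 95% interval -0.00 to 0.42, adjusted p = 0.11, limma; exact permutation p = 0.20). Without parental library 1 it was 0.29 and called (adjusted p = 0.044). The log2 ratio of CCNE1 to CCNE2 changed by -0.05 (exact permutation p = 0.90).

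**Figure D3:**
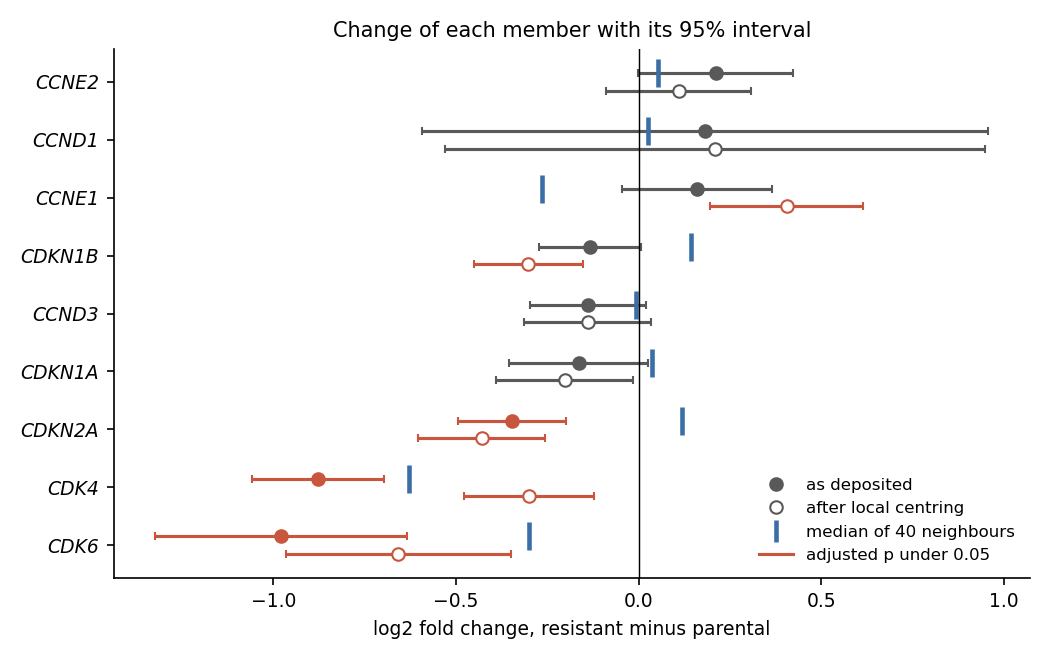
log2 fold change, resistant minus parental (horizontal axis), of the 9 tested members with 95% intervals, as deposited (filled points) and after local centring (open points), in red where called. Blue bars mark the median of the 40 neighbours, and CDK4, at -0.88, moves to -0.30 after centring, while CDKN2A, at -0.35, moves to -0.43.

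Levels between genes were compared per kb of the canonical transcript, and they depend on that length because the transcripts in use were not measured. CDKN2A was highest in both groups, at 7716 ± 492 in parental and 6066 ± 255 in resistant cells, above 98.9% and 98.8% of tested genes. CDK4 followed at 3336 ± 107 and 1821 ± 195, and CDKN1A (1716 ± 188 and 1526 ± 71.6) and CDKN1B (1569 ± 78.8 and 1429 ± 5.75) came next, with CDKN1A and CDKN1B overlapping in parental cells. In every library of both groups CDKN2A lay above CDK4, and in resistant cells the ranges of CDK4 (1598 to 1959) and CDKN1A (1481 to 1609) overlapped.

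Below these stood CCND3, at 1040 ± 41.3 per kb in parental and 945 ± 51.9 per kb in resistant cells. The E cyclins, CCNE2 at 441 ± 40.9 and 511 ± 44.5 and CCNE1 at 412 ± 37.9 and 460 ± 18.0 per kb, did not differ from each other beyond their spread. CDK6 was at 109 ± 15.4 per kb in parental and 55.9 ± 12.1 per kb in resistant cells, above 44.4% and 32.1% of tested genes, and CCND1 was at 17.2 ± 5.58 and 19.9 ± 7.28 per kb.

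The surrounding pathway was described with lists that held 130 further genes, of which 126 were tested. Across them 52 were called, 18 higher and 34 lower, or 41.3% against 37.7% of all genes, and the median log2 fold change was -0.06. After local centring 45 were called, 38 of them among the 52, against 30.6% of all genes. Among the other CDK inhibitors, 3 of 4 were lower and none higher, with a median of -0.52. Besides CDKN2B these were CDKN1C, which encodes p57 (1910 ± 476 to 1198 ± 143, log2 fold change -0.65), and CDKN2D, which encodes p19INK4d (845 ± 49.8 to 646 ± 21.2, -0.39). CDKN2C, which encodes p18INK4c, was at 1217 ± 44.2 and 1093 ± 30.2 and was not called (adjusted p = 0.13, limma). Its groups did not overlap, and after local centring it stood at -0.24 and was called (adjusted p = 0.041, limma).

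CDK2, the partner of the E cyclins, was the only one of 4 tested genes among the other interphase cyclins and CDKs to be called. That was 25%, against 37.7% of all genes tested. CDK2 fell from 2906 ± 29.8 to 1975 ± 103 (log2 fold change -0.56, SE 0.07, adjusted p = 0.00014, limma). CDK2 also lies on chromosome 12, and 26 of its 40 neighbours were called lower and none higher, with a median of -0.60. After local centring it stood at -0.01 (adjusted p = 0.93). The log2 ratio of CDK4 to CDK2 was lower by -0.32 in resistant cells (exact permutation p = 0.10). Of 5 genes that activate CDKs, MNAT1, which assembles the CDK-activating kinase, rose from 751 ± 114 to 1172 ± 31.6 (0.65, and 0.22 without a call after local centring, adjusted p = 0.16, limma), and the phosphatase gene CDC25A fell from 1885 ± 63.1 to 1533 ± 70.2 (-0.30).

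The 19 genes of the RB family, E2F and the DREAM complex split, with 3 higher, 5 lower and a median of -0.02. That was 42.1% called, against 37.7% of all genes tested. RB1, the substrate of the D cyclin kinases, was at 872 ± 120 in parental and 813 ± 50.4 in resistant cells and was not called (log2 fold change -0.09, adjusted p = 0.55, limma). RBL2, the RB relative p130, rose from 1068 ± 112 to 1596 ± 128 (0.58), and E2F2 from 735 ± 55.2 to 1130 ± 96.6 (0.62). E2F1 fell from 4901 ± 212 to 4004 ± 83.6 (-0.29) and the repressor E2F6 from 755 ± 62.0 to 532 ± 15.2 (-0.50).

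Among 26 E2F targets of the G1/S transition, 8 were lower and 2 higher, or 38.5% called against 37.7% of all genes tested, with a median of -0.09. The helicase subunit MCM7 fell from 22832 ± 638 to 13997 ± 706 (-0.71), the uracil glycosylase UNG from 4470 ± 210 to 2828 ± 110 (-0.66) and UHRF1, which maintains DNA methylation, from 4226 ± 52.0 to 3317 ± 65.6 (-0.35). CHAF1B, a histone chaperone subunit, rose from 1772 ± 90.2 to 3624 ± 217 (1.03). None of these 4 was called after local centring, where MCM7 stood at -0.22 (adjusted p = 0.056, limma), UNG at -0.08 (0.39), UHRF1 at -0.20 (0.051) and CHAF1B at 0.11 (0.31). The E2F letters TTTCCCGC, TTTCGCGC, TTTGCCGC and TTTGGCGC, searched on both strands, occurred in 0 of the 11 promoter windows of the 7 members matched in the table and in 3.315% of all windows.

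Genes of the ubiquitin pathways that degrade G1 regulators were lower in 5 and higher in 1 of 18, with a median of -0.06. That was 33.3% called, against 37.7% of all genes tested. SKP2 fell from 5640 ± 104 to 4336 ± 213 (-0.38), and CKS2, of the same list, from 1466 ± 119 to 975 ± 114 (-0.59). CUL1, the scaffold of the SCF ligase, fell from 3464 ± 286 to 2457 ± 84.6 (-0.49), and after local centring it stood at -0.23 and was not called (adjusted p = 0.051, limma). UBAC1, a subunit of the ligase that degrades p27 in G1, fell from 2519 ± 69.9 to 2009 ± 90.1 (-0.33).

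Of 10 targets of ERK signalling, the pathway upstream of CCND1, 4 were higher and 1 lower (50% called), with a median of 0.07. The share called over all genes tested was 37.7%. DUSP4 rose from 45.7 ± 5.81 to 180 ± 25.6 (1.95), PHLDA1 from 68.0 ± 11.9 to 150 ± 20.05 (1.13), EPHA2 from 350.2 ± 113 to 693 ± 82.3 (1.02) and SPRED1 from 179 ± 30.0 to 281 ± 33.1 (0.65). DUSP6, another ERK phosphatase, was the 1 that fell (26.1 ± 8.78 to 9.97 ± 3.02, -1.29), and it was named after its values were seen. After local centring it stood at -0.86 and was not called (adjusted p = 0.12, limma).

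Of 20 transcription regulators of the members, 5 were higher and 5 lower, with a median of -0.03. That was 50% called, against 37.7% of all genes tested. SMAD3, which carries TGF-beta signals to CDKN1A and CDKN2B, rose from 468 ± 48.4 to 1183 ± 138 (1.33) and ETS2 from 810 ± 55.4 to 1243 ± 18.1 (0.62). After local centring ETS2 turned to -0.27 and was called lower (adjusted p = 0.042, limma). EZH2, the Polycomb methyltransferase that represses CDKN2A, fell from 5674 ± 311 to 3406 ± 224 (-0.74), and KLF4, an activator of CDKN1A, from 1339 ± 93.0 to 997 ± 40.6 (-0.42). After local centring EZH2 stood at -0.45 and remained called (adjusted p = 0.0021, limma), and KLF4 stood at -0.04 and was not called (adjusted p = 0.80).

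**Figure D4:**
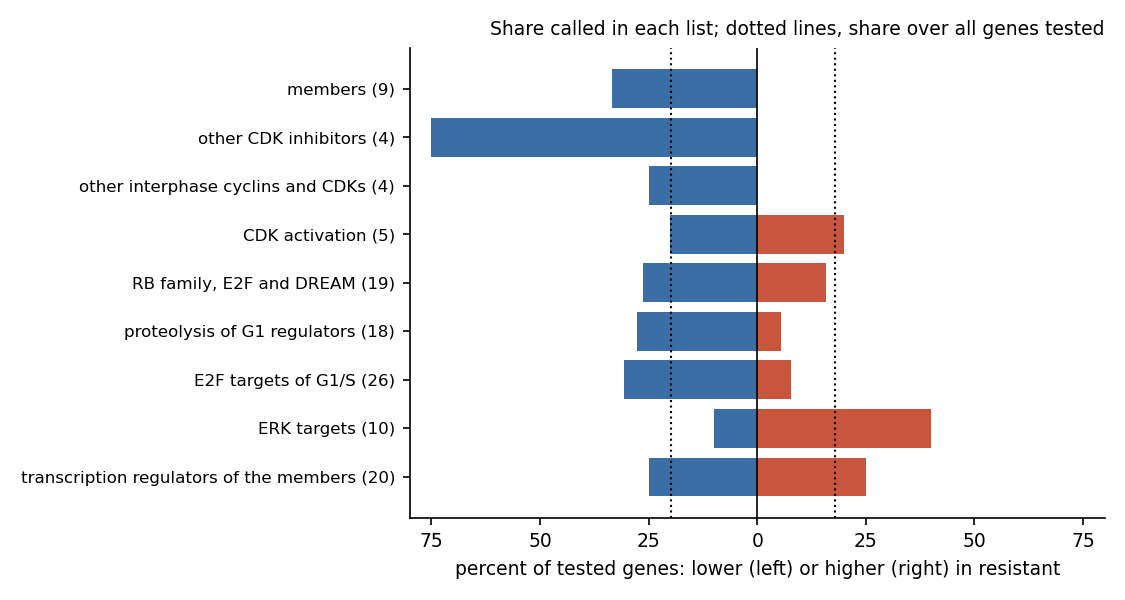
Percent of tested genes called lower (blue, to the left) or higher (red, to the right) in resistant cells for the 9 members and the pathway lists described, with the number of genes tested in brackets. Dotted lines mark 19.8% lower and 17.8% higher over all genes tested, and 3 of 4 other CDK inhibitors were lower.

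Of the 7 proliferation markers, MKI67 was the only one called, rising from 10747 ± 561 to 15030 ± 2204 (log2 fold change 0.47), and PLK1 itself was at 5311 ± 444 and 5509 ± 276. Of 9 tuft-like markers, 5 were higher, among them TRPM5 (1.77) and CHAT (1.72), and 3 were lower, among them AVIL (-0.80, and -0.31 after local centring) and ASCL2 (-0.47). The 4 neuroendocrine markers tested, INSM1 (-2.28), SYP (-2.15), CHGA (-4.22) and DLL3 (-0.47), all fell and were called. Over all genes tested, 37.7% were called. COL1A1 rose from 59.7 ± 21.9 to 269 ± 34.7 and COL1A2 from 86.0 ± 14.0 to 201 ± 85.6. Whether these differences in cell state have a part in those of the members was not tested.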

How the data were processed

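RNA-seq was done on 3 parental and 3 onvansertib-resistant H526 libraries. Per the labels and the study's methods, the authors trimmed reads with Trimmomatic 0.38, aligned and quantified them with RSEM 1.3.1 and STAR on GRCh38 with a Gencode annotation, and normalized gene counts with DESeq2 1.30.0. The deposited values are this normalized signal per gene and library, with replicates kept apart. Of 62757 rows, 47 second copies of pseudoautosomal genes were left out. Symbols, positions and lengths came from Gencode v44 (62639 rows matched). Only 49.9% to 62.0% of low values were whole multiples of 1 read within 0.05 reads, so counts could not be rebuilt and a log-scale test replaced the count test. The step of the low values gave the depth, which is therefore an estimate.

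The test was limma 3.58.1 in R 4.3.3 (lmFit, then eBayes with trend), fitted to log2(value + 1) of genes whose mean was at least 10, with condition alone and Benjamini-Hochberg adjustment over all of them at 0.05. The pseudocount understates changes of low genes. The fit was run on simulated data with independent noise and few changed genes. Many genes were called here, so that run does not vouch for the fit on these data. Single values and within-library ratios, 6 pairs listed and 5 added, had an exact two-sided permutation test. CCND2 was at 0, so the 2 listed pairs with it only repeat the change of CCND1 or, with its sign turned, of CCND3. They are not given. Local centring subtracted from each library the median shift of the 20 nearest tested genes on each side. Named were all members, up to 4 genes a list with the smallest p among those called without overlap, and, whatever their values, CDK2, RB1, CDKN2B and POU2F3. MYCN, PLK1, CDKN2C, DUSP6 and genes that overlap members were named outside this rule, after their values were seen. A few genes and 1 list are not reported here, although they remain in the counts over lists. Promoter windows came from RefSeq. Alternatives were other pseudocounts, filters, scalings, a fit without trend, local centring and leaving out each library. The members and lists were chosen with earlier results of these data known.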

Additional observations from a re-analysis of the deposited data

How the results depend on the processing

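CDK4, CDK6 and CDKN2A were called and lower under all 14 alternatives, with highest adjusted p of 0.017, 0.015 and 0.027 (limma). The number of members called was 3 as reported and 5 after local centring. It was 4 with quantile normalization and with upper quartile scaling, and ran from 3 to 4 when each library was left out. CCNE1 and CDKN1B were the additional calls of local centring. CCNE2 was called with quantile normalization (0.26, adjusted p = 0.048) and with upper quartile scaling (0.27, adjusted p = 0.040), besides the fit without parental library 1, and its adjusted p ranged from 0.040 to 0.38 over all alternatives. The log2 fold change of CCND1 ran from -0.12, without parental library 3 (adjusted p = 0.83), to 0.53. The cause was not tested, and CCND1 had few reads. Genes called over all tested ranged from 4784 to 6228 (6161 as reported) and genes of the pathway lists from 41 to 54 (52 as reported). With 10 instead of 20 genes on each side, CDKN1B differed from its neighbours by -0.35 in place of -0.28. CDK4 differed by -0.32 in place of -0.25, and CDK6 by -0.84 in place of -0.68. The median of the neighbours of CDK6 was -0.13 with 10 genes on each side, -0.30 with 20 and -0.38 with 50. No paired analysis was possible because the parental libraries are numbered 1 to 3 and the resistant ones 7 to 9, with none shared, and no label ties a parental library to a resistant one.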

Other observations

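Cyclin and CDK genes outside the lists above were picked by symbol after the values had been seen. Of 34 tested, 10 were called by limma, 6 lower and 4 higher in resistant cells, against 37.7% of all genes. CDK5, whose kinase is best known from neurons, fell from 1312 ± 69.0 to 743 ± 47.7 (SD, n = 3, log2 fold change -0.82), and CDK14, a cyclin Y partner in Wnt signalling, from 1817 ± 88.4 to 1062 ± 132 (-0.78). CDK20 fell from 128 ± 10.8 to 51.6 ± 5.95 (-1.30). CCNK, the cyclin of the transcriptional kinases CDK12 and CDK13, rose from 2373 ± 95.1 to 3099 ± 208 (0.38), and the mitotic cyclin gene CCNB2 from 3602 ± 344 to 4384 ± 196 (0.29). After local centring CDK14 stood at -0.50 and CDK20 at -1.29, both called, whereas CDK5 stood at -0.25 (adjusted p = 0.054, limma) and CCNK at 0.08 (0.40), not called, and CCNB2 turned to -0.27 (0.027). The other 24 were not called as deposited.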
